A study of Homo sapiens with 4 samples.

Results

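Smaller imprinted regions, grouped here as methylated in the germline, were examined in C4-2B cells, a line of castration-resistant prostate cancer derived from LNCaP. Whether the mark at each span was set in the germline or later cannot be read from these cells. The regions are those at L3MBTL1, NNAT, DIRAS3, RB1, INPP5F, ZDBF2, NAP1L5, FAM50B, ZNF597 and ZNF331. They were defined by position alone, as 10 spans of the hg19 genome from 5 to 27 kb long and 105 kb in all, and any peak sharing at least 1 bp with a span was taken. This gave 28 of the 261657 peaks of the control list and 32 of the 296521 peaks of the knockout list. Methylated DNA was immunoprecipitated with an antibody against 5-methylcytosine and sequenced. The control cells carried the guide RNA sgC, labelled WT, and the knockout cells the guide sgPKCl/i against the atypical protein kinase C PKCλ/ι, encoded by PRKCI. Both were untreated and were harvested 48 h after plating at about 70% confluency. Each genotype had 1 input and 1 immunoprecipitated library, so no value below has a replicate check and no p-value is given. Whether the knockout cells were a single clone is not stated in the labels, and the cell type could not be checked against marker genes because the lists hold no expression values.

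At an imprinted gene only the copy from one parent is expressed, and the silent or active state is tied to a differentially methylated region whose mark is set in the egg or the sperm. After fertilisation the mark is kept on that parental copy by DNMT1 and by zinc finger proteins such as ZFP57, which binds methylated DNA at imprinted regions and recruits TRIM28. Several of these small regions belong to genes copied into the intron of a host gene, or to a second promoter inside a larger gene. Immunoprecipitation does not separate the parental copies, so a region methylated on one copy and a region methylated in part on both look alike in these values. A difference in the number of copies of a locus also cannot be told apart from a difference in methylation per copy. The local background at the highest peak is given for each gene. Whether it came from the input or the immunoprecipitate was not determined. It is a local value, and copy number was not read from it.

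Each peak has a pileup, the whole number of fragments overlapping its summit. Pileups were divided by the floor, the lowest local background of the list, which is the genome-wide mean pileup in the caller's model. The floor was 2.92 in control cells and 4.42 in knockout cells, so the knockout immunoprecipitate was 1.51 times as deep. The median peak stood at 8.55 times the floor in the control list and 8.14 times in the knockout list. Intervals are at the 95% level and cover counting error only.

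Promoter windows of 4 of the genes are shown because their spans ran from the highest control pileup of the set (FAM50B) to no control peak at all (DIRAS3). Each window runs from 250 bases before to 50 bases after a RefSeq transcription start in build GRCh38.p14, and capitals mark CpG, the dinucleotide that is methylated. FAM50B on chromosome 6 spans 3849123 to 3849422 (plus strand), NAP1L5 on chromosome 4 spans 88697780 to 88698079 (minus strand), L3MBTL1 on chromosome 20 spans 43507447 to 43507746 (plus strand), and DIRAS3 on chromosome 1 spans 68050578 to 68050877 (minus strand).
FAM50B: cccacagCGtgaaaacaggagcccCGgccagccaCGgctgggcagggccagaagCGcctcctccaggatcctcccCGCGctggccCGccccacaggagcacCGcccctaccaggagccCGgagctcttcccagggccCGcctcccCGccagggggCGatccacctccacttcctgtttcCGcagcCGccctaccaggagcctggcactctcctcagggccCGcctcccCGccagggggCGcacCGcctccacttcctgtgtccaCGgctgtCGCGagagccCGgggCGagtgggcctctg
NAP1L5: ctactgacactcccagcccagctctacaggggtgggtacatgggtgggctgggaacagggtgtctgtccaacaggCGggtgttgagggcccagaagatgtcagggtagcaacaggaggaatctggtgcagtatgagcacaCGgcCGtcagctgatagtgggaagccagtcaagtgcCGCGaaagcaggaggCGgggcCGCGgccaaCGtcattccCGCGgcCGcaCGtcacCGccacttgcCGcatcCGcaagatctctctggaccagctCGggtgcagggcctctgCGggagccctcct
L3MBTL1: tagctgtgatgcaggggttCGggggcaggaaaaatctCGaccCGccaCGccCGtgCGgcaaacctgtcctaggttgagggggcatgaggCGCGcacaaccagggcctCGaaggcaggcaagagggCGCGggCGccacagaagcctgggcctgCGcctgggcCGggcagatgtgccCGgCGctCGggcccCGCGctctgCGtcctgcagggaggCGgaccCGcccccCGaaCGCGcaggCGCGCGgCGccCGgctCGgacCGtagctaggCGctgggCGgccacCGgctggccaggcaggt
DIRAS3: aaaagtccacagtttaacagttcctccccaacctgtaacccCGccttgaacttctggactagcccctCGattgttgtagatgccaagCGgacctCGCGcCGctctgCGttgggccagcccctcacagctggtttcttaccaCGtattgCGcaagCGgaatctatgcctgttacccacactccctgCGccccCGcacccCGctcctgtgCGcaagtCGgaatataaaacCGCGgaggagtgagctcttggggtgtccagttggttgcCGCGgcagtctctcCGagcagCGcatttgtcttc
The windows shown hold 23 CpG in FAM50B, 18 in NAP1L5, 35 in L3MBTL1 and 21 in DIRAS3, against a median of 14 over 35116 promoter windows (quartiles 4 and 28). These 4 were thus above the median, while a second L3MBTL1 window, starting at 43514191 and not shown, held 9. The shown and the second L3MBTL1 window lie further apart than the 6 kb of the L3MBTL1 span, so they cannot both lie in it. Which of them does was not determined, and the window shown may lie outside the span. Of the windows shown, that of the gene without a control peak held more CpG than that of NAP1L5. The motif TGCCGC, the core bound by ZFP57, was searched on both strands. It occurred in 4 of the 9 genes with any window (DIRAS3, L3MBTL1, NAP1L5 and ZDBF2) and in 4 of their 17 windows, against 16.7% of all windows. The windows are in another build than the peaks, so their position against the peaks and the spans was not determined.

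Methylated regions were listed at 9 of the 10 spans in both genotypes, and at DIRAS3 in the knockout only. For scale, when the genome was divided into tiles of 7 kb, 29.9% of tiles held a peak of both lists. Peaks covered 25.5% of the 105 kb in control cells and 29.6% in knockout cells. Peaks of −log10 q of at least 10, called strong here, numbered 17 of 28 in control cells and 25 of 32 in knockout cells, near the shares of all peaks of the lists (57.0% and 74.5%).

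**Figure D1:**
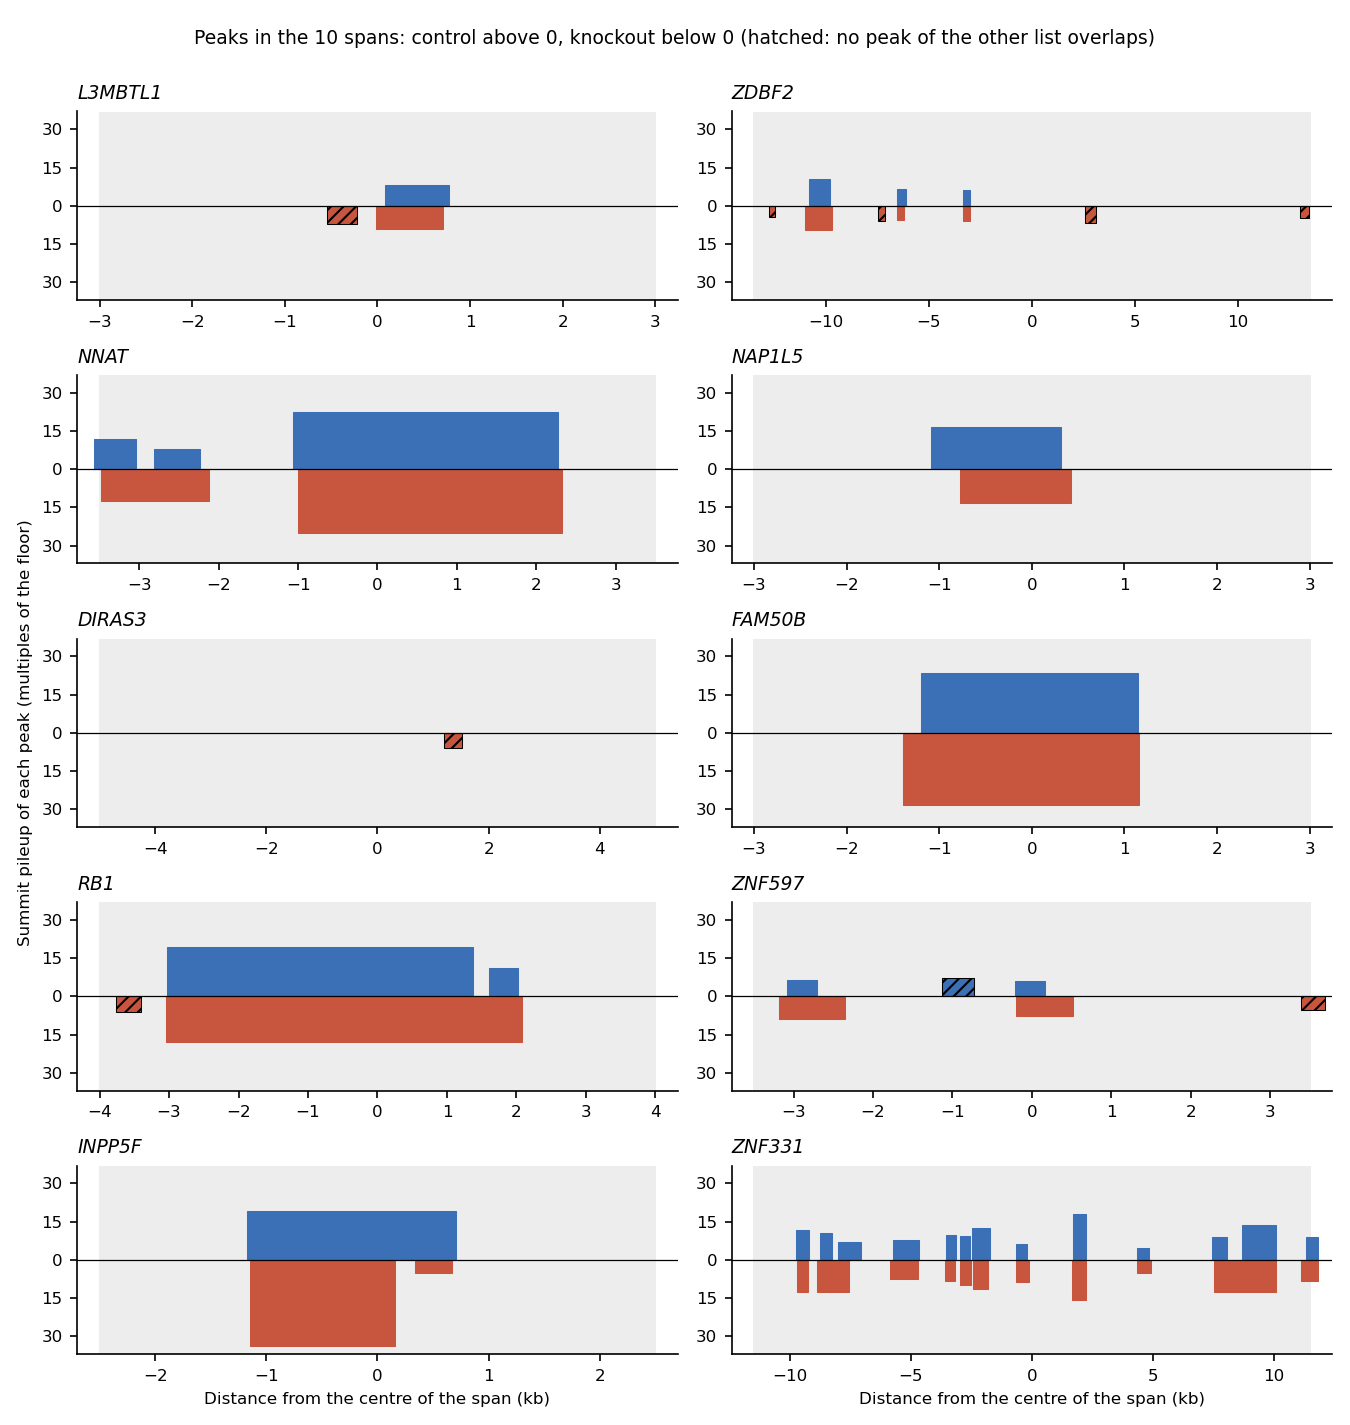
Peaks in each of the 10 spans, drawn by distance from the centre of the span in kb (grey area, the span) and by summit pileup in multiples of the floor, with the control in blue above 0 and the knockout in red below 0, 1 library each. NNAT, RB1 and FAM50B show a block over 2 kb long in both genotypes, DIRAS3 has a single short knockout peak, and hatched peaks (1 control, 8 knockout) overlap no peak of the other list.

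The spans differed widely in pileup. The number of CpG under each peak was not counted, so these pileups do not rank the spans by the share of CpG methylated. In the control the highest pileup of a span ran from 7.18 times the floor at ZNF597 to 23.6 times at FAM50B, with a median of 18.1 over 9 spans. From the top the control order was FAM50B, NNAT, RB1, INPP5F, ZNF331, NAP1L5, ZDBF2, L3MBTL1 and ZNF597. In the knockout the highest pileup ran from 5.88 times the floor at DIRAS3 to 33.9 times at INPP5F, with a median of 14.6 over 10 spans. The knockout order was that of the control except that INPP5F came first, and DIRAS3 came last. Neighbours in the control order had overlapping intervals throughout. The highest peak lay above 95% of the list's peaks at 5 spans in control cells and at 4 in knockout cells. The highest of several peaks is favoured by being chosen as such. Over 7 kb tiles with a peak, the median of the tile's highest peak was 9.58 times the floor in control cells and 9.49 times in knockout cells. The tiles were not matched to the spans for CpG.

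**Figure D2:**
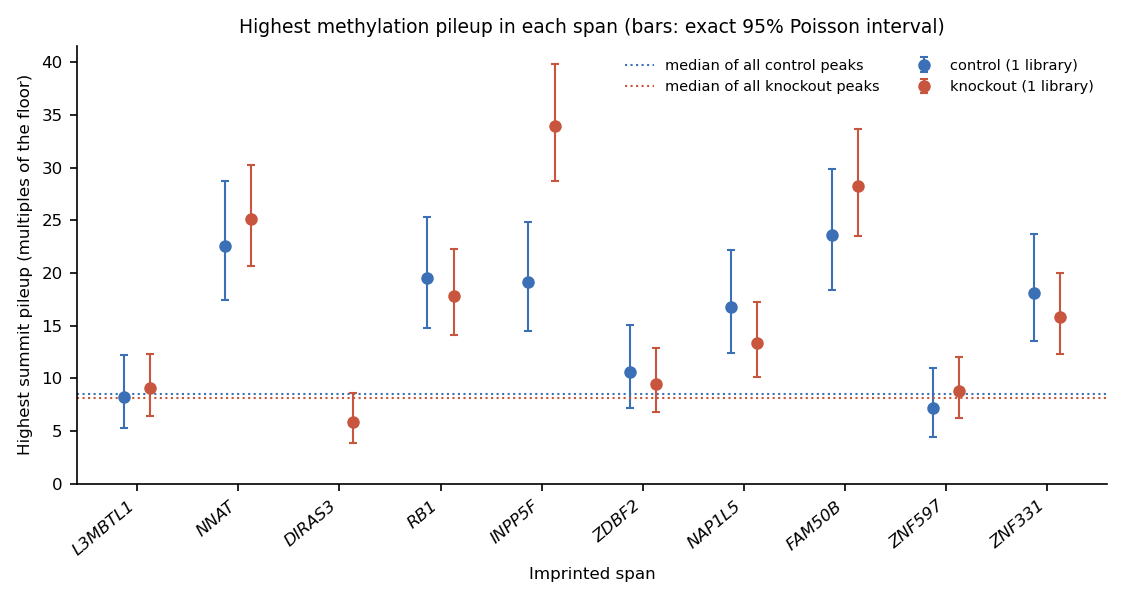
Highest summit pileup of each span in multiples of the floor (linear axis from 0), control in blue and knockout in red, 1 library each, with exact 95% Poisson intervals and the median of all peaks of each list as dotted lines. INPP5F is the span where the genotypes stand furthest apart, at 19.2 and 33.9, and L3MBTL1, ZDBF2 and ZNF597 lie near the median of all peaks in both.

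Long peaks were common in the spans. The longest peak reached 1000 bp in 7 of 10 spans in each genotype. Among 7 kb tiles with a peak, 15.4% held one of that length in control cells and 18.4% in knockout cells. A length of 2000 bp was reached at NNAT, RB1 and FAM50B in both genotypes and at ZNF331 in the knockout, against 2.71% and 3.64% of such tiles. The spans at ZDBF2 and ZNF331 are longer than a tile, and their longest peaks were 1054 and 1379 bp in the control.

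NNAT encodes neuronatin, a small membrane proteolipid of the endoplasmic reticulum, and lies inside the gene BLCAP. A single block on chromosome 20 covered 36148436 to 36151771 in the control (3336 bp) and 36148494 to 36151823 in the knockout (3330 bp). Its pileup was 66 (51.0 to 84.0) in control cells and 111 (91.3 to 134) in knockout cells, or 22.6 and 25.1 times the floor. The edges of the block nearly coincided between genotypes, and the knockout level was 1.11 times that of the control (0.812 to 1.53). Within the block the summits lay 1117 bp apart. The local background was 1.65 times the floor in control cells and 1.49 times in knockout cells, and the authors' fold enrichment was 11.5 and 14.8. Toward the lower coordinates of the span the control had separate peaks with pileups of 35 and 23, and the knockout had 1 peak of 1358 bp with a pileup of 55 across both.

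NAP1L5 encodes a protein of the nucleosome assembly family and lies inside HERC3. Its only peak on chromosome 4 covered 89617909 to 89619311 in control cells and 89618221 to 89619422 in knockout cells. The pileup was 49 (36.3 to 64.8) in control cells and 59 (44.9 to 76.1) in knockout cells, or 16.8 and 13.3 times the floor. This was the lowest knockout to control ratio of the set, 0.796 (0.535 to 1.19), with an interval that includes 1. The local background was at the floor in control cells and 1.66 times the floor in knockout cells, and the fold enrichment was 12.7 and 7.21.

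INPP5F encodes an inositol polyphosphate phosphatase, and a shorter imprinted transcript starts from a promoter inside the gene. On chromosome 10 the control had 1 peak from 121577329 to 121579203, which the knockout list split into peaks from 121577357 to 121578653 and from 121578839 to 121579168. The highest pileup was 56 (42.3 to 72.7) in control cells and 150 (127 to 176) in knockout cells, or 19.2 and 33.9 times the floor. This was the largest difference of the set and the only one with an interval that excludes 1, at 1.77 times (1.29 to 2.45). The summits lay 612 bp apart, so these pileups were counted at different places in the region. The knockout value lay above 99.9% of that list's peaks and the control value above 97.4% of its own. The local background differed in the same direction and by more, at 1.65 times the floor in control cells and 3.83 times in knockout cells. The fold enrichment, which divides by that background, was 9.79 in control cells and 8.41 in knockout cells. The second knockout peak, with a pileup of 22 and a background of 1.03 times the floor, did not share the high background. The part of the background in the higher pileup was not tested.

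RB1 encodes the retinoblastoma protein, which restrains entry into S phase, and its imprinted region lies in an intron that carries the pseudogene PPP1R26P1. On chromosome 13 the control had a peak of 4402 bp from 48890977 to 48895378 and a second from 48895608 to 48896020. The knockout had 1 peak of 5123 bp from 48890957 to 48896079 over both, the longest of all peaks in the 10 spans. A short knockout-only peak from 48890235 to 48890590, with a pileup of 27, lay 387 bp from the nearest control peak. The highest pileup was 57 (43.2 to 73.9) in control cells and 79 (62.5 to 98.5) in knockout cells, or 19.5 and 17.9 times the floor. The level thus differed by 0.916 times (0.643 to 1.31), within counting error. The fold enrichment went the other way, from 7.21 in the control to 12.6 in the knockout, beside a local background of 2.41 times the floor in control cells and 1.21 times in knockout cells. Reads from the pseudogene and from its parent gene may have been shared in alignment, which was not tested.

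FAM50B arose as a retrogene, an intronless copy of an X-linked gene. Its only peak on chromosome 6 covered 3848801 to 3851149 in the control (2349 bp) and 3848607 to 3851158 in the knockout (2552 bp). The pileup was 69 (53.7 to 87.3) in control cells and 125 (104 to 149) in knockout cells, or 23.6 and 28.3 times the floor. The genotypes differed by 1.20 times (0.885 to 1.63), within counting error. The local background was high in both, at 2.79 and 2.98 times the floor, and the fold enrichment was 7.64 and 8.88.

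L3MBTL1 encodes a reader of methylated histone lysines that compacts chromatin. On chromosome 20 the control had 1 peak from 42143079 to 42143767 with a pileup of 24 (15.4 to 35.7), and the knockout had an overlapping peak from 42142983 to 42143701 with a pileup of 40 (28.6 to 54.5). These were 8.21 and 9.04 times the floor, near the median of all peaks. The ratio was 1.10 (0.648 to 1.91), beside a background of 1.45 times the floor in control cells and 1.72 times in knockout cells and a fold enrichment of 4.78 and 4.77. A second knockout peak from 42142457 to 42142782, with a pileup of 32, lay 297 bp from the nearest control peak. Within 20 kb of the span both lists held a higher peak, with a pileup of 62 in control cells and 96 in knockout cells. Such a higher neighbour was found at 3 spans in the control list (L3MBTL1, ZNF597 and ZNF331) and at these and ZDBF2, 4 in all, in the knockout list.

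DIRAS3 encodes a Ras-related GTPase that restrains growth. Its span held no control peak and 1 knockout peak on chromosome 1 from 68516199 to 68516518. That peak had a pileup of 26 (17.0 to 38.1), 5.88 times the floor, with the background at the floor, and it was higher than 17.2% of knockout peaks. The 20 kb on each side held 0 peaks in both lists, and the nearest control peak lay 112338 bp away. At the control's depth this pileup would be 17.2. Control peaks with their background at the floor went down to a pileup of 10. The DIRAS3 peak was picked by its knockout call, so why the control list lacks it was not tested by this scaling. The pileup of the control library at a place without a peak is not listed, so no ratio can be given.

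Of the 3 zinc finger genes, ZNF331 had the most peaks, and those of ZDBF2 and ZNF597 were scattered. Apart from the highest one at ZDBF2, the control peaks of these 2 lay below the list's median pileup. ZNF331 encodes a Krüppel-associated box (KRAB) zinc finger protein, and its span of 23 kb on chromosome 19 held 13 control and 11 knockout peaks. Each of them overlapped a peak of the other list. The highest was from 54051208 to 54051753 in the control, with a pileup of 53 (39.7 to 69.3), and from 54051180 to 54051734 in the knockout, with a pileup of 70 (54.6 to 88.4). The summits lay 22 bp apart, and the level differed by 0.873 times (0.602 to 1.27). The local background was at the floor in control cells and 1.53 times the floor in knockout cells, and the fold enrichment was 13.8 and 9.15. Joined across lists, the peaks formed 11 regions with log2 ratios from -0.20 to 0.52, and the interval of each included 0. Peaks were about as dense as around the span, with 5.65 per 10 kb against 4.25 in the flanks in control cells and 4.78 against 5.00 in knockout cells.

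ZDBF2 encodes a zinc finger protein of the DBF type and has its imprinted marks upstream of the gene. The highest peak on chromosome 2 covered 207114662 to 207115715 in control cells and 207114494 to 207115772 in knockout cells. Its pileup was 31 (21.1 to 44.0) in control cells and 42 (30.3 to 56.8) in knockout cells, or 10.6 and 9.49 times the floor. The ratio was 0.895 (0.550 to 1.47). Control peaks at 207118952 and 207122175 had pileups of 19 and 18, and their knockout partners had 25 and 27, with log2 ratios of -0.20 and -0.01. The shared peaks thus differed by less than counting error, and the background was at most 1.06 times the floor in all 10 peaks of the span. The knockout list held 4 further peaks, starting at 207112727, 207118025, 207128089 and 207138527, with pileups of 19, 26, 30 and 22.

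ZNF597 encodes another zinc finger protein and adjoins NAA60. On chromosome 16 the control peaks at 3490412, 3492370 and 3493292 had pileups of 19, 21 and 18, all below the median pileup of 25 of that list. The knockout peaks at 3490315, 3493306 and 3496886 had pileups of 39, 34 and 24. The highest peaks of the genotypes, with pileups of 21 and 39 and backgrounds of 1.00 and 1.28 times the floor, did not overlap. The outer control peaks had knockout partners, with log2 ratios of 0.44 (-0.39 to 1.31) and 0.32 (-0.55 to 1.23). For the second of these pairs the background was 1.22 times the floor in control cells and 2.34 times in knockout cells, and the fold enrichment was 4.17 and 3.08. The middle control peak, from 3492370 to 3492766, was the only control peak of all spans without a knockout peak on it, and the nearest knockout peak was 540 bp away.

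By an overlap of at least 1 bp the spans held 1 control-only and 8 knockout-only peaks. The 1 control-only peak of 28 compares with 12.1% of all control peaks. The 8 knockout-only peaks of 32 compare with 23.9% of all knockout peaks, a share near that of the list. Among strong peaks these were 1 of 17 against 3.24% in control cells, and 5 of 25 against 14.9% in knockout cells. These counts depended on the overlap asked for: with 50% reciprocal overlap they were 8 and 12, against 21.6% of all control and 30.8% of all knockout peaks. By the 1 bp rule the 8 knockout-only peaks were short, from 299 to 524 bp, with pileups from 19 to 32. Of these, 4 lay in ZDBF2, and L3MBTL1, DIRAS3, RB1 and ZNF597 had 1 each. Scaled to the control's depth their pileups were 12.6 to 21.1, and the Poisson −log10 p recomputed from these was 4.91 to 10.3, above the lowest value of 3.24 in the control list. Width and counting error were not part of that scaling. These peaks were picked by their call in the knockout, which favours high pileups there. The scaled values therefore do not test why the control list lacks them.

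Where both genotypes had a peak, one-to-one pairs of peaks in the spans had ratios within 1.5-fold, and each counting interval included a ratio of 1. These intervals were wide, so they do not show that levels were equal. Over 18 one-to-one pairs in the spans the median log2 ratio of floor-scaled pileup, knockout over control, was 0.05 (range -0.33 to 0.52), and 9 were above 0. Over the 206556 pairs of the genome it was 0.04. ZNF331 gave more of the pairs than any other span, and neighbouring peaks of 1 span are not separate members. Without ZNF331, 9 pairs remained, with a median log2 ratio of 0.14. Of the 18 pairs 0 were over 1.5-fold higher and 0 over 1.5-fold lower, against 5.14% and 3.60% of all pairs. At such shares 18 pairs would hold very few, so these counts are near the shares. INPP5F and RB1 gave no such pair because the peaks there were split in one list. With overlapping peaks joined into regions, 1 of 23 regions, that at INPP5F, was over 1.5-fold higher and 0 were over 1.5-fold lower, against 5.27% and 3.47% of 220001 regions. Of all these regions 1.33% had a higher ratio than INPP5F. Paired regions within 1 Mb of each span had median log2 ratios from -0.04 to 0.07, close to the genome's median.

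**Figure D3:**
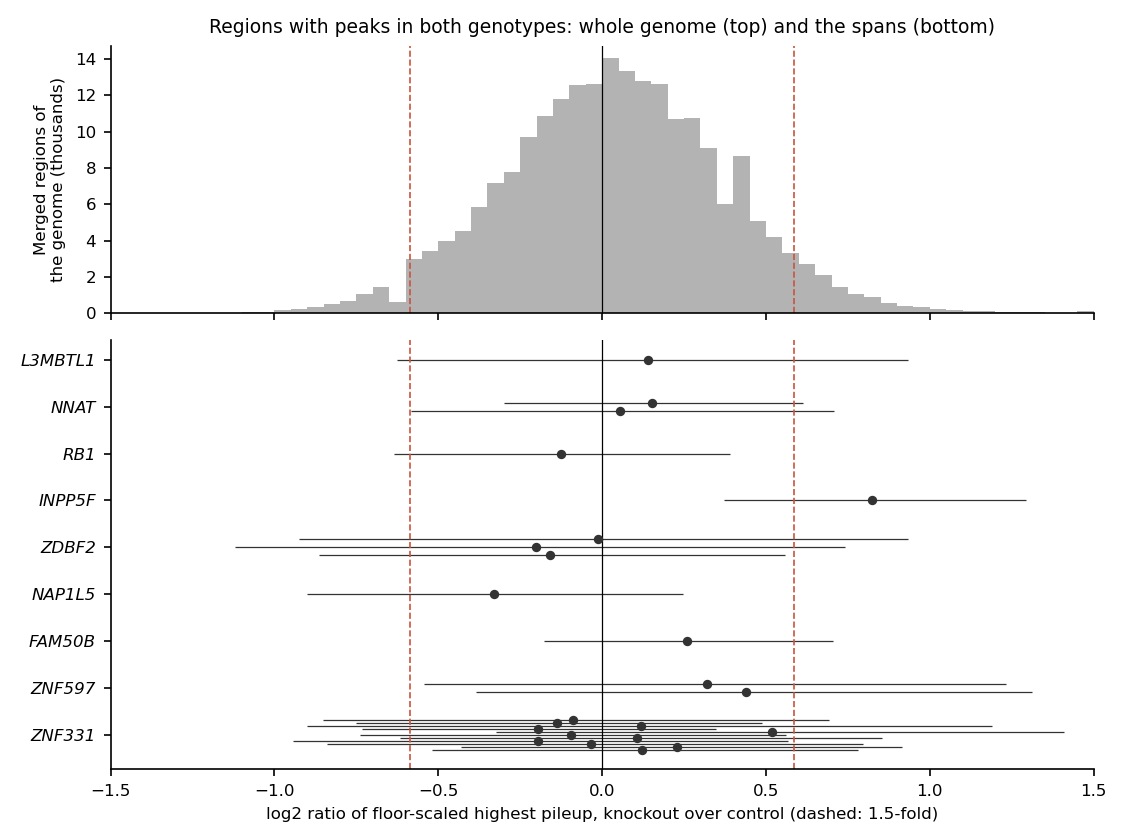
Log2 ratio of floor-scaled highest pileup, knockout over control, for all 220001 joined regions with peaks of both lists (upper histogram, values beyond 1.5 counted in the end bins) and for the 23 regions of the spans (lower points with exact 95% counting intervals); dashed lines mark 1.5-fold. The INPP5F point at 0.82 lies beyond the line, and the other 22 lie between -0.33 and 0.52.

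The fold enrichment and the pileup did not always rank the genotypes in the same way. Over the 9 spans with peaks in both lists the median log2 ratio was 0.14 for the pileup and -0.00455 for the fold enrichment, and 3 spans (L3MBTL1, RB1 and INPP5F) had opposite signs by the 2 measures. The local background at the highest peak differed between genotypes by log2 ratios from -0.996 at RB1 to 1.22 at INPP5F. It was higher in the knockout at 6 spans. At 4 of these (INPP5F, NAP1L5, ZNF331 and L3MBTL1) the fold enrichment was lower in the knockout, and at ZNF597 and FAM50B it was higher. At NNAT and RB1 the background was lower and the fold enrichment higher, and at ZDBF2 the background was at the floor in both.

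**Figure D4:**
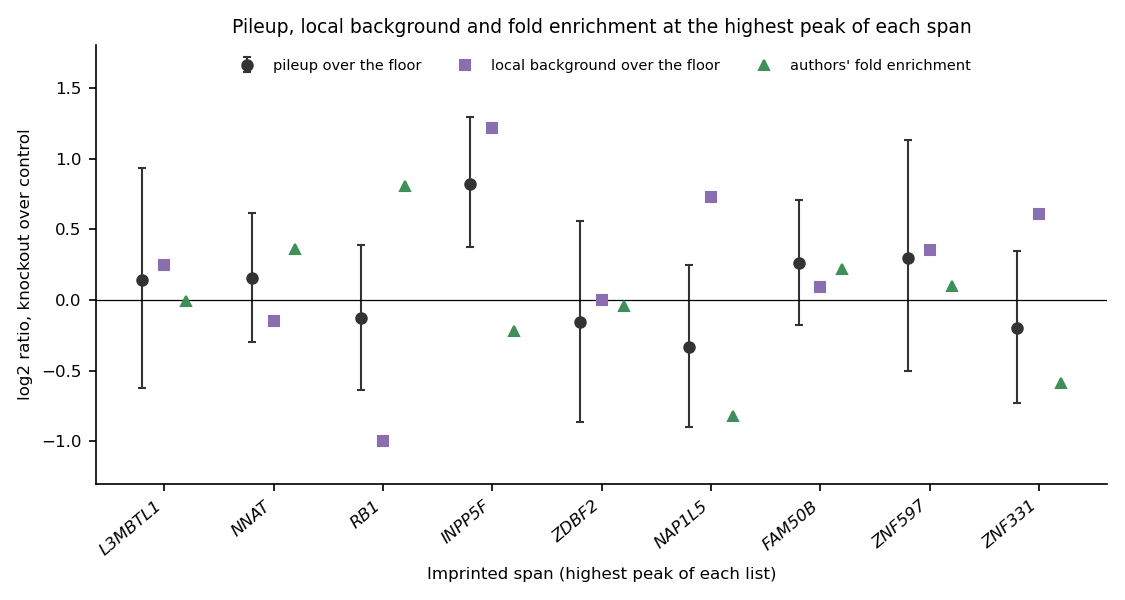
Log2 ratio, knockout over control, of the floor-scaled pileup (black, with 95% counting interval), the floor-scaled local background (violet squares) and the authors' fold enrichment (green triangles) at the highest peak of each of 9 spans. At RB1 and INPP5F the background and the fold enrichment lie on opposite sides of 0.

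As a comparison, the same values were taken at 10 major imprinting control regions, whose spans were placed from general knowledge of hg19. These spans were shorter, 56 kb in all against 105 kb. Peaks of both lists were found at 9 of the 10, as in the smaller regions, but at H19-IGF2 and PEG10 the peaks of the lists did not overlap. In these control regions 2 of 17 control peaks and 8 of 19 knockout peaks overlapped no peak of the other list. In the smaller regions these were 1 of 28 and 8 of 32, and over the whole lists 12.1% and 23.9%. The longest peak reached 1000 bp at 3 of them in control cells and at 5 in knockout cells. It reached 2000 bp at 1 and at 4. The median longest peak was 615 bp in control cells and 1290.5 bp in knockout cells, against 1403 and 1288 bp in the smaller regions. There the highest pileup had a median of 10.3 times the floor in control cells and 14.1 times in knockout cells, against 18.1 and 14.6 in the smaller regions. The median log2 ratio was 0.34 over 9 regions, with 4 over 1.5-fold higher and 0 over 1.5-fold lower, against 0.14 with 1 and 0 in the smaller regions. At 2 of these 4 the highest peaks of the genotypes did not overlap, so the ratio sets different places against each other; this was so at 3 of the 9 regions in all and at 1 of 9 smaller regions (ZNF597). With 1 library per genotype this difference was not tested.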

How the data were processed

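Methylated DNA immunoprecipitation was done on 4 libraries, an input and an immunoprecipitate for each genotype, and the 2 deposited peak lists were used. Reads were aligned with BWA to hg19, passed through FastQC, and MACS2 made the peak calls, as listed per the labels' processing notes. Neither versions nor parameters are given in the sources used here. List names match the genotype and antibody of 1 sample each. In the deposited lists the pileup signal is a whole number of fragments that the authors did not scale. The authors' fold enrichment is a ratio of pileup to local background, with 1 added to each, and the deposited −log10 p and q values are the caller's. Positions, lengths and summits count from 1.

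The local background was recomputed from pileup and fold; with it the Poisson tail gave the listed −log10 p to within 0.000573. Library totals were not listed, so depth was taken from the floors, which were treated as exact. Peaks were shared where they had at least 1 bp in common, and pairs are peaks that each overlap exactly 1 peak across lists. Intervals are exact Poisson for pileups and exact Clopper-Pearson, given the sum of both pileups, for ratios. No test between genotypes was possible. The pairing was checked on simulated lists. All 10 members are described; in each the highest peak, each list-only peak and each pair past 1.5-fold are named. The members, spans and lists were chosen with earlier results of these data known. No hg19 annotation was used, so exons and introns are not assigned from it. Gene neighbours and promoter windows are from RefSeq on GRCh38.p14, matched by symbol for 9 of 10 members. NNAT had no window. Python 3.11.15, numpy 2.4.6, pandas 2.3.3 and scipy 1.17.1 were used.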

Additional observations from a re-analysis of the deposited data

How the results depend on the processing

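Of 72 alternatives, 53 stayed within 1.5 times (counts) or within the 95% interval (log2 ratios; for medians, that of the order statistics), 18 left it and 1 reversed. Reversal was counted only for ratios past 1.5-fold, of which INPP5F was the only one: by the authors' fold enrichment its log2 ratio was -0.22 against 0.82 by pileup. RB1, under 1.5-fold by pileup, also changed sign, from -0.13 to 0.81, outside the counting interval of its pileup ratio. That interval leaves out the error of the local background, so it does not measure the error of the fold. The local background, which enters only the fold, was higher in the knockout at INPP5F and lower at RB1. By the length-weighted sum of pileups INPP5F was at 0.34. That sum takes in every peak of a span, also those found in only 1 list. By it L3MBTL1, ZDBF2 and ZNF597 were over 1.5-fold higher in the knockout, at 0.65, 0.67 and 0.93. ZDBF2 changed sign from -0.16 and left the interval of its pileup ratio. NAP1L5 was lower in the knockout by the sum, at -0.55. Peaks in the spans numbered 17 in the control at a −log10 q of at least 10, and at a fold of at least 5 they were 17 in control cells and 19 in knockout cells, fewer by construction. With 50% reciprocal overlap 8 peaks were control-only and 12 knockout-only. With a peak of the other list within 1 kb counted as shared, 0 control-only peaks and 5 knockout-only ones had no partner; 5 knockout-only peaks were strong. The median log2 ratio of the highest pileups was 0.74 without scaling, which leaves in the difference in depth, and 0.34 by the length-weighted sum, for which the cause was not tested. It was 0.01 without INPP5F. Scaling by neighbours within 1 Mb, leaving out INPP5F and joining peaks into regions were chosen after seeing the data. Scaling by the median of all pairs shifts log2 ratios by 0.036, and scaling by neighbours by at most 0.075. Such shifts are small beside the intervals, so these alternatives could hardly leave them and say little about stability. No paired analysis was possible because there was only 1 library in each group. Counting intervals of single ratios were wide, and a ratio of 1 lay outside that of 1 of the 9 spans; the others do not show that levels were equal.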
